A study of Drosophila melanogaster with 46 samples.

Results

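Antimicrobial peptides are small secreted proteins that insects release against bacteria and fungi. In Drosophila melanogaster most of the circulating peptide is made by the fat body, which also lies under the cuticle of the head, and their genes are among the most inducible genes of the fly. Transcription is driven by NF-kappaB factors through the Imd pathway, which acts through Relish and answers mainly to Gram-negative bacteria, and the Toll pathway, which acts through Dif and Dorsal and answers mainly to fungi and Gram-positive bacteria. Diptericins, attacins and drosocin are classical readouts of Imd, drosomycin is the classical readout of Toll after systemic infection, and metchnikowin and defensin receive input from both.

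The 10 genes described here were chosen by symbol: the diptericins DptA and DptB, the attacins AttA, AttB and AttC, the drosocin gene Dro, the cecropin gene CecA1, the metchnikowin gene Mtk, the defensin gene Def and the drosomycin gene Drs. They are 10 of the 17490 genes in the count table, and all 10 passed the filter on low counts that left 9969 genes for testing. RNA-seq of heads was compared between 4 groups of flies. WT-old was wild type at day 49 (12 libraries). The inc1 group was a short-sleeping mutant of insomniac at day 27 (12 libraries). The wakeD2 group was a short-sleeping mutant of wide awake at day 27 (12 libraries). WT was the isogenic Canton-S w1118 (iso1CJ) strain at day 27 (10 libraries). Both mutants had been backcrossed repeatedly into the WT strain, so all groups shared that background, and no infection was described for any group. Each library was described as made from pooled heads of many flies of both sexes at 1 timepoint, every 4 h under light-dark cycles over 2 consecutive days, from Zeitgeber time (ZT) 0 to ZT44 (ZT28 and ZT40 of WT were not analysed here). No timepoint was repeated within a group, so the spread given here is that between timepoints.

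Total counts per library ranged from 12630462 to 29802881. The labels were checked first on the mutated genes. The inc transcript was at 10.1 ± 1.57 CPM in inc1 and 83.2 ± 13.7 CPM in WT (SD, n = 12 and 10), and wake was at 43.2 ± 5.04 CPM in wakeD2 and 71.6 ± 3.31 CPM in WT. CPM is a count scaled for depth, of the total counts for markers and mutated genes and of TMM-scaled library sizes for the immune genes. Photoreceptor and neuronal markers such as ninaE and nSyb were abundant in all groups, and fat body and hemocyte markers were also present.

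Some libraries stood apart. Digestive enzymes of the midgut, with a median over the marker list above 1 CPM, were found in 1 WT-old, 4 inc1, 11 wakeD2 and 3 WT libraries. All 7 midgut markers tested were higher in wakeD2 than in WT. The same list marked out these libraries, so those calls are no separate support. In the 6 WT-old libraries of the dark hours (ZT12, ZT16, ZT20, ZT36, ZT40 and ZT44) the yolk protein transcripts Yp1 to Yp3, made by the female fat body, summed to 114.6 to 7300 CPM, against 43315 to 66246 CPM in the 6 WT-old libraries of the light hours. In the same dark-hour libraries the male-specific RNA roX1 was at 1389 to 1542 CPM, against 607 to 827 CPM in the light hours. The pools were described as of mixed sexes, with no shares given. These 6 dark-hour libraries differed from the light-hour ones in both kinds of transcript, and their sex makeup was not tested. In these WT-old libraries time of day and the levels of these sex-specific transcripts cannot be told apart, and results on WT-old are also given for light and dark hours apart. In bulk RNA, fewer cells of a type and less RNA per cell cannot be told apart.

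The genes lie in a few clusters. In the Release 6 assembly (Ensembl annotation), Dro (chromosome 2R, 14745961 to 14746714), AttA (2R, 14747362 to 14748215) and AttB (2R, 14749223 to 14750165) are consecutive, all on the plus strand, with 648 bp between Dro and AttA and 1008 bp between AttA and AttB. DptA (2R, 18865765 to 18866260) and DptB (2R, 18867391 to 18867895) are 1131 bp apart on the plus strand. AttC (2R, 13393705 to 13394667), Mtk (2R, 15408846 to 15409113) and Def (2R, 10054178 to 10054576) stand alone on the same arm, CecA1 (3R, 30210874 to 30211273) lies in the cecropin cluster, and Drs (3L, 3369556 to 3369942) is next to Ythdc1. AttC, DptB and Def overlap a gene on the opposite strand and Mtk overlaps Stacl on the same strand, and AttB ends 1 bp from Rpn6, so part of their counts could depend on how overlaps were counted. AttA and AttB are close copies whose reads are uncertain between them, and they were also tested as 1 summed gene.

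Per kilobase of exon, Mtk had the highest mean level of the 10 genes in every group, at 1122 CPM per kb in WT-old, 997 in inc1, 541 in wakeD2 and 499.9 in WT. Dro was second in every group. Def had the lowest level in every group, at 57.7 CPM per kb in WT-old, 33.0 in inc1, 13.2 in wakeD2 and 21.3 in WT, and CecA1 was ninth in every group. Drs ranked 3 in WT-old, 6 in inc1 and 5 in wakeD2 and WT.

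The first question was how the genes differed in aged flies. WT-old and WT were each sampled as a single series of pools. Age and other differences between these series therefore cannot be told apart, and the p-values measure spread between timepoints, not between cohorts. All 10 genes rose in WT-old, by 1.18 to 1.94 on the log2 scale with a median of 1.44, whereas the median over all genes tested was -0.01 (edgeR quasi-likelihood test, BH adjusted p from 6.63e-07 to 0.00225). Of all genes tested 14.0% were called higher in WT-old. Ranked by fold change over the 9969 genes, the 10 genes stood between place 17 (Drs) and place 70 (CecA1).

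Drs, the antifungal peptide read out for Toll, rose the most. It ranged from 135 to 373 CPM with a median of 297 in WT-old, against 24.8 to 180 CPM with a median of 54.9 in WT. In 9 of the 12 WT-old libraries Drs was above every WT library. The difference was 1.94 ± 0.28 on the log2 scale (SE), a 3.83-fold higher level.

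The attacins, glycine-rich peptides active on Gram-negative bacteria, rose together. AttA ranged from 83.6 to 261 CPM (median 161) in WT-old and from 19.9 to 94.7 CPM (median 55.7) in WT. AttB ranged from 77.1 to 204 CPM (median 113) in WT-old and from 20.7 to 84.7 CPM (median 47.8) in WT. AttC ranged from 285 to 945 CPM (median 616) in WT-old and from 95.4 to 301 CPM (median 215) in WT. For each of the attacins 11 of 12 WT-old libraries lay above the highest WT library, and the exception was ZT20 in every case. The fold changes were 3.25 for AttA, 2.51 for AttB and 2.84 for AttC, and AttA and AttB summed as 1 gene differed by 1.55 ± 0.21 on the log2 scale.

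Dro, a short proline-rich peptide, ranged from 299 to 769 CPM (median 528) in WT-old and from 70.8 to 373 CPM (median 147) in WT, a 3.13-fold higher level. The diptericins, also active on Gram-negative bacteria, rose as well. DptA ranged from 108 to 322 CPM (median 190) in WT-old and from 29.0 to 177 CPM (median 77.4) in WT. DptB ranged from 122 to 489 CPM (median 235) in WT-old and from 40.4 to 147 CPM (median 103) in WT. The folds were 2.49 and 2.59, and the ranges of both diptericins overlapped between the groups.

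Mtk was the only gene of the 10 whose libraries did not overlap. It ranged from 199 to 445 CPM (median 289) in WT-old and from 65.4 to 186 CPM (median 141) in WT, a 2.29-fold higher level. Over all genes 0.612% had WT-old libraries that were all above all WT libraries. Def, a peptide active mainly on Gram-positive bacteria, ranged from 15.5 to 31.9 CPM (median 22.2) in WT-old and from 3.64 to 24.8 CPM (median 5.41) in WT, and CecA1 from 8.73 to 44.3 CPM (median 24.1) in WT-old and from 2.81 to 24.2 CPM (median 9.29) in WT. Def was 2.89-fold and CecA1 2.26-fold higher.

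**Figure D1:**
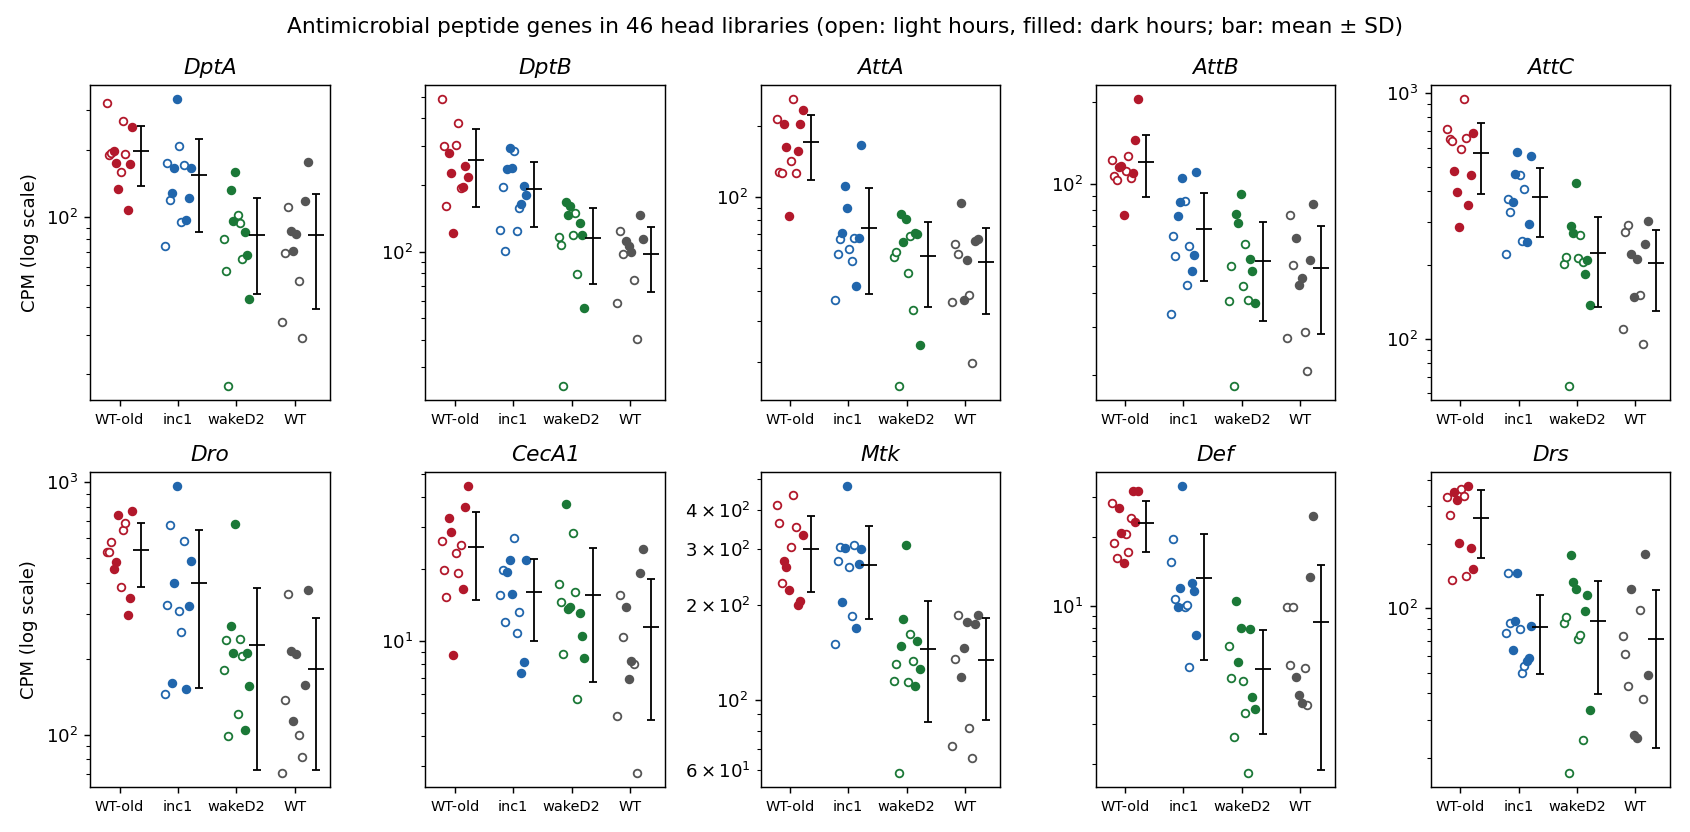
Level of each of the 10 genes in CPM on a log scale, with 1 point per library, open for light hours and filled for dark hours, and the mean ± SD beside the points (n = 12, 12, 12 and 10). The WT-old points of Mtk are all at or above 199 CPM and the WT points at or below 186 CPM, and the wakeD2 library at ZT8 lies lowest for 8 genes.

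The rise in WT-old did not rest on the light-hour or the dark-hour libraries alone. With the WT-old libraries of the light hours alone all 10 genes were higher, with a median log2 difference of 1.76, and with those of the dark hours alone all 10 were higher, with a median of 1.20. AttC had the largest gap between these subsets, at 1.95 ± 0.26 on the log2 scale with the light-hour libraries and 1.003 ± 0.27 with the dark-hour libraries. With light hours alone in every group all 10 were higher, with a median of 1.85. These subsets were chosen after the yolk protein levels had been seen, and the shares of all genes higher in them are not given here. Without the libraries with midgut markers all 10 remained higher (median 1.65). In the second sampling day alone 8 of 10 were called, and DptA (adjusted p = 0.110) and CecA1 (adjusted p = 0.143) were not.

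Markers of the cells that make these peptides did not rise in WT-old. Of 9 fat body genes 3 fell and none rose. Of 7 hemocyte genes 6 fell, including the blood cell protein gene Hml at 140 ± 35.8 CPM in WT-old and 238 ± 45.5 CPM in WT. The median log2 differences of these lists were -1.05 and -0.72, below the median over all genes given above. The share of all genes called lower in WT-old is not given here. The summed hemocyte list ranged from 493 to 1047 CPM in WT-old and from 948 to 1476 CPM in WT, and no marker of the list was at 0. The summed fat body list ranged from 3680 to 74669 CPM in WT-old and from 57242 to 81085 CPM in WT, most of it from the yolk protein genes that were low in the dark-hour libraries. Without Yp1 to Yp3 it ranged from 3566 to 11323 CPM in WT-old and from 7582 to 10245 CPM in WT, and 2 of the 6 other fat body genes fell, apolpp by 0.40 and Fbp1 by 1.14 on the log2 scale. The part of these markers in the result was not tested.

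The second question was whether these genes differed in the sleep mutants at day 27. In these comparisons sleep loss and other effects of each mutation cannot be told apart. In inc1, 6 of 10 genes were higher than in WT, with a median log2 difference of 0.80 over the 10, and all 10 estimates were above 0. Of all genes tested 14.9% were called higher in inc1, with a median of 0.02. The comparisons share the WT libraries, so they are not independent of each other. Of the 9 fat body markers 2 rose in inc1, the larval storage protein gene Lsp2 by 1.69 and the lipid carrier gene apolpp by 0.39 on the log2 scale, and none fell. Without the yolk genes the summed fat body list ranged from 8328 to 17444 CPM in inc1 and from 7582 to 10245 CPM in WT. None of the 7 hemocyte markers passed the test in inc1, and the part of these markers in the result was not tested.

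The called genes were Dro, both diptericins, AttC, Mtk and Def. Dro, at 399 ± 245 CPM in inc1 and 182 ± 109 CPM in WT (SD, n = 12 and 10), had the largest difference at 1.10 ± 0.26 on the log2 scale (adjusted p = 0.000847). Mtk was at 267 ± 86.8 CPM in inc1 and 134 ± 47.8 CPM in WT (adjusted p = 0.000128), with 9 of 12 inc1 libraries above the highest WT library. DptB was at 192 ± 62.3 CPM in inc1 and 97.2 ± 31.6 CPM in WT, and DptA at 155 ± 69.1 CPM in inc1 and 83.3 ± 44.0 CPM in WT. AttC was at 378 ± 119 CPM in inc1 and 204 ± 74.4 CPM in WT, a 1.86-fold higher level. No gene of the 10 had inc1 libraries that were all above all WT libraries, which 0.813% of all genes had, and in both groups some timepoints lay far above the rest: Dro reached 966 CPM at ZT20 in inc1.

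Def was called by a narrow margin, at 13.2 ± 7.40 CPM in inc1 and 8.50 ± 6.60 CPM in WT (log2 difference 0.70 ± 0.28, adjusted p = 0.0495). Its call was lost in 27 of the 46 fits that left out 1 library, with the highest adjusted p of 0.151 without the inc1 library at ZT20. In the second sampling day alone its difference was -0.05.

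Drs, AttA, AttB and CecA1 did not pass the test in inc1. Drs ranged from 49.7 to 147 CPM (median 78.5) in inc1 and from 24.8 to 180 CPM (median 54.9) in WT, with a log2 difference of 0.39 whose 95% interval ran from -0.16 to 0.93 (adjusted p = 0.296). AttB missed the threshold at an adjusted p of 0.0555 and passed it in 12 of the 46 fits with 1 library left out, and AttA had an adjusted p of 0.119. CecA1 had an adjusted p of 0.153 and passed without the WT library at ZT44 (0.0487). AttA and AttB summed had a log2 difference of 0.48 ± 0.21 (adjusted p = 0.0734). Without the libraries with midgut markers 7 of 10 genes were called, AttB being the addition. In the first sampling day alone 4 genes were called (Mtk, Dro, Def and CecA1), and DptB (adjusted p = 0.0757), DptA (0.0842) and AttC (0.0910) were not. In the second day alone only DptB and Mtk were called, and Drs had a difference of -0.30.

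In wakeD2 none of the 10 genes passed the test against WT (edgeR, smallest adjusted p = 0.0789), and DESeq2 called none. Of all genes tested 23.3% were called in either direction. The median log2 difference over the 10 genes was 0.11, and 1 gene, Def, had an unadjusted p under 0.05. Def was at 5.28 ± 2.54 CPM in wakeD2 and 8.50 ± 6.60 CPM in WT (log2 difference -0.67 ± 0.28), with medians of 4.73 and 5.41 CPM. Its highest WT value was 24.8 CPM, at ZT44. Def was called lower when the WT library of ZT12 (adjusted p = 0.0437), ZT16 (0.0479) or ZT20 (0.0325) was left out. No other fit without 1 library called it. Over the 46 such fits its difference ranged from -0.77 to -0.41, with an adjusted p of up to 0.298. For Mtk the 95% interval of the difference ran from -0.29 to 0.48, for DptA from -0.49 to 0.56, for Dro from -0.13 to 0.86 and for Drs from -0.27 to 0.83. Of the wakeD2 libraries 11 of 12 held midgut markers above the limit, whose sum ranged from 16.2 to 1311 CPM in wakeD2 and from 12.2 to 112 CPM in WT. With the summed midgut markers as a covariate none of the 10 genes was called, as without it. The median of that sum was 339 CPM in wakeD2 and 19.8 CPM in WT. The covariate thus largely follows the wakeD2 group, and midgut RNA and genotype cannot be told apart by it.

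**Figure D2:**
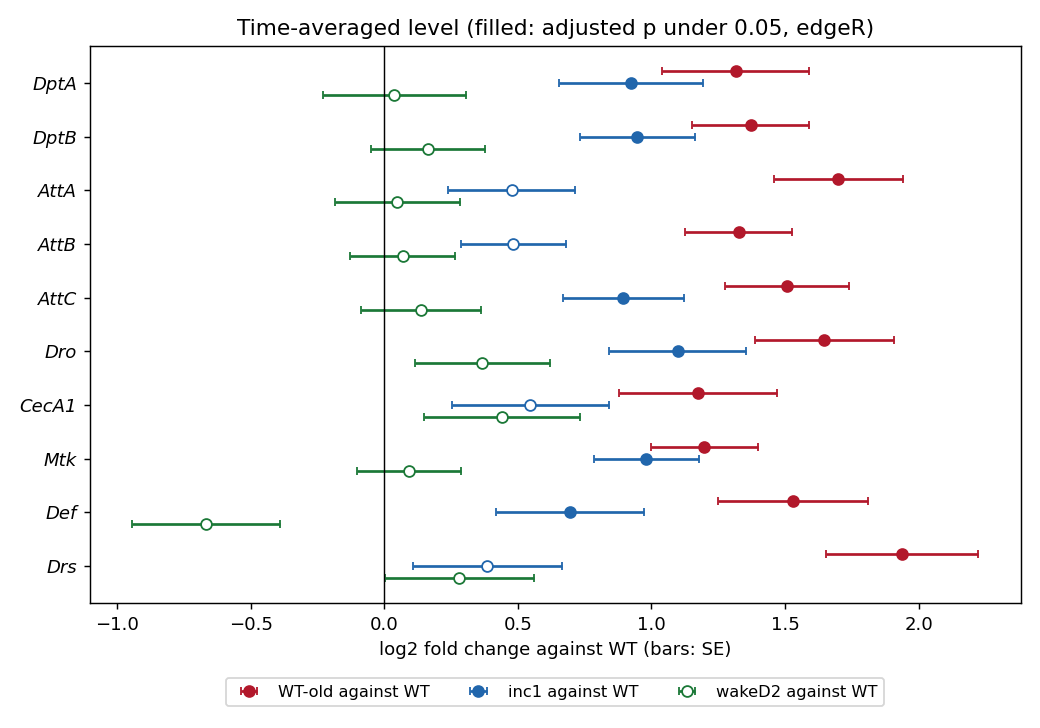
Log2 fold change of the time-averaged level against WT for each gene (bars, SE), with a filled point where the adjusted p was under 0.05. WT-old points lie between 1.18 and 1.94, inc1 points between 0.39 and 1.10 with 6 filled, and no wakeD2 point is filled.

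The groups were then compared with each other. By mean level the order was WT-old, inc1, wakeD2, WT for 8 genes, with Drs and Def as the exceptions. In WT-old, 5 genes were higher than in inc1 (background 24.1% of all genes higher): Drs by 1.55 ± 0.26 on the log2 scale, AttA by 1.22 ± 0.22, AttB by 0.84 ± 0.19, Def by 0.84 ± 0.26 and AttC by 0.61 ± 0.21. Mtk (0.22, 95% interval -0.15 to 0.58) and DptA (0.39, -0.10 to 0.88) did not pass the test, nor did DptB, Dro and CecA1, whose adjusted p lay between 0.0516 and 0.0775. The set of called genes was sensitive to the WT-old libraries: 8 of 10 passed with the light-hour libraries of WT-old alone and 3 of 10 with its dark-hour libraries alone. The 24.1% belongs to the fit of all libraries. Shares of all genes in these subsets are not given here, so the 2 counts are not set against them. With the dark-hour libraries the estimates of DptA (-0.05), DptB (-0.07) and Mtk (-0.26) were below 0. The count was also 8 without the WT-old library at ZT20 or without the inc1 library at ZT24. The 5 called genes passed in all 46 fits that left out 1 library.

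All 10 genes were higher in WT-old than in wakeD2, where 21.8% of all genes were higher. Def differed the most, by 2.20 ± 0.27 on the log2 scale, and every WT-old library (15.5 CPM or more) lay above every wakeD2 library (10.5 CPM or less), a separation in that direction that 1.44% of all genes had. CecA1 differed the least (0.73 ± 0.28, adjusted p = 0.0270, and 0.0588 without the WT-old library at ZT44). Between the mutants, 6 genes were lower in wakeD2 than in inc1, where 18.5% of all genes were lower. Def was lower by 1.36 on the log2 scale, Mtk by 0.89, DptA by 0.89, DptB by 0.78, AttC by 0.76 and Dro by 0.73. Drs differed by -0.10 (95% interval -0.62 to 0.41). Where libraries with midgut markers were left out, wakeD2 kept 1 library and none of the 10 genes passed against inc1 or WT-old.

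The next question was whether the genes followed the time of day. None of the 10 passed a test for a 24 h rhythm in any group (edgeR on cosine and sine terms), and none had an unadjusted p under 0.05. Of all genes tested 19.3% passed in WT-old, 5.04% in inc1, 5.95% in wakeD2 and 6.19% in WT. The smallest adjusted p was 0.214, for AttC in WT-old, and an F test on log2 CPM also called none. A change in rhythm against WT was called for none of the 10, where it was called for 1.72% of all genes in WT-old, 0.0301% in inc1 and 0.0% in wakeD2. In that test 1 gene in WT-old had an unadjusted p under 0.05.

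Even so, the means of dark and light hours were ordered alike in 3 groups. The dark-hour mean was higher for 9 of 10 genes in inc1, 10 of 10 in wakeD2 and 10 of 10 in WT, with a median ratio of dark to light of 1.21 in inc1, 1.43 in wakeD2 and 1.47 in WT. In WT-old it was higher for 5 and lower for 5 genes, with a median ratio of 0.96. AttC averaged 445 CPM in the dark hours and 701 CPM in the light hours of WT-old, against 225 CPM and 183 CPM in WT. The 10 genes of a library move together, so these counts are not 10 separate observations. In WT-old this split coincides with that of the yolk protein and roX1 transcripts.

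A 12 h period was fitted after the values had been seen. With sampling every 4 h, its terms only contrast sets of timepoints that lie 12 h apart. The samples of the series are listed set by set in the same way. A 12 h period and any other difference between these sets therefore cannot be told apart. Drs passed in WT-old (adjusted p = 0.0433), wakeD2 (0.0128) and WT (0.00358) and Dro passed in inc1 (0.00302), while 32.8% of all genes passed in WT-old, 42.9% in inc1, 39.1% in wakeD2 and 31.3% in WT. In each group 1 of 10 genes passed, a smaller share than that of all genes. Between the second and the first sampling day none of the 10 genes passed in any group, where 0.712% of all genes did in WT-old, 1.32% in inc1, 0.0201% in wakeD2 and 0.0% in WT. The smallest adjusted p was 0.286, for Def in inc1, and Def in inc1 was the only one with an unadjusted p under 0.05.

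The spread between timepoints was instead shared among the genes. Over the 46 libraries, with each gene centred within its group, all 45 pairs of the 10 genes had a positive Pearson correlation of log2 CPM, with a median r of 0.61. The points share their library, depth and RNA pool. Values of r for other gene pairs are not given here, so this sharing is not shown to be particular to these genes. AttA and AttB, whose reads are uncertain between them, had r = 0.85. The pair closest to each other was AttC and DptA (r = 0.90), which are on the same arm but in different clusters, and the farthest was Dro and Drs (r = 0.18). AttC had the highest median r with the other genes (0.79) and Def (0.40) and Drs (0.44) the lowest. Within single groups the sharing was less complete. The median r of the 45 pairs was 0.40 in WT-old, 0.55 in inc1, 0.73 in wakeD2 and 0.75 in WT, and r was positive for 36 pairs in WT-old, 44 in inc1, 45 in wakeD2 and 43 in WT. The lowest was that of Dro and Drs in WT-old (r = -0.55).

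Single libraries carried much of this spread. In wakeD2 the library of ZT8 was lowest for 8 of 10 genes, with a mean deviation of -1.46 from the group mean on the log2 scale, and in it Drs was at 17.0 CPM and DptA at 17.8 CPM. The wakeD2 libraries of ZT12 and ZT20 held the highest value of 5 genes each. In inc1 the library of ZT20 was highest for 6 genes and all 10 were above their mean. In WT the library of ZT32 was lowest for 8 genes, with a mean deviation of -1.11, and that of ZT44 highest for 7. In WT-old the library of ZT20 was lowest for 6 genes, with a mean deviation of -0.60. The SD of the mean deviation was 0.30 in WT-old, 0.42 in inc1, 0.64 in wakeD2 and 0.60 in WT.

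**Figure D3:**
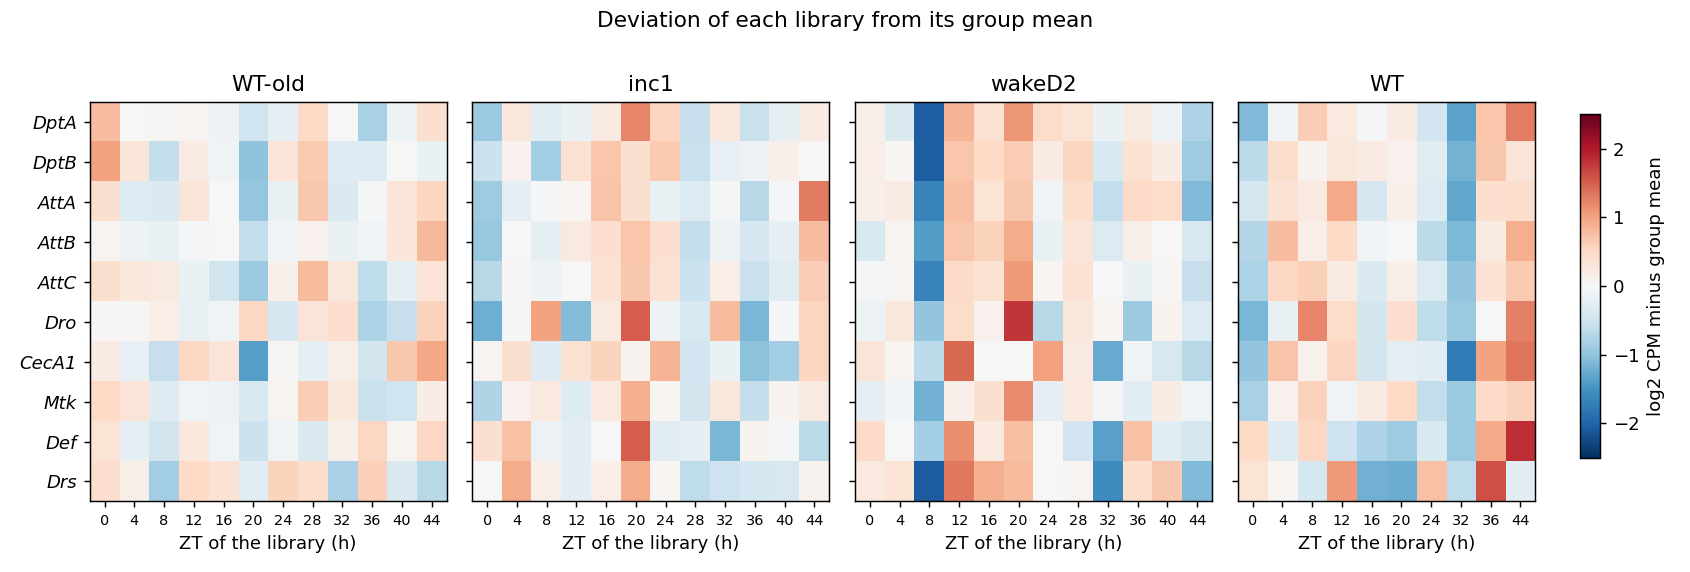
Log2 CPM of each gene (rows) in each library (columns, by ZT) minus the mean of its group, from blue (below) to red (above). Whole columns share a colour: ZT8 of wakeD2 and ZT32 of WT are low in nearly all genes, and ZT20 of inc1 and wakeD2 are high.

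These deviations were set beside marker levels as a description. Across the 12 wakeD2 libraries the mean deviation of the 10 genes had r = 0.25 with the log2 of the summed midgut markers and r = 0.42 with that of the hemocyte markers. The value for hemocyte markers rested on the library of ZT8, without which it was -0.54. Without that library the value for midgut markers was 0.39. That library, the lowest for the peptide genes, had a hemocyte sum of 507 CPM, and the other 11 wakeD2 libraries had 810 to 1179 CPM. Across the 10 WT libraries r with the midgut sum was 0.58, and the 3 WT libraries with midgut markers averaged 0.57 from the group mean while the rest averaged -0.24. In inc1 the same r was -0.03 and in WT-old -0.23. Much of the WT-old sum was Amy-p, with a median of 64.6 CPM where the whole list had 78.7 CPM. In WT the median of Amy-p was 9.67 CPM. The WT-old library of ZT44 had the highest sum of that group, 183 CPM, but a marker median of 0.017 CPM. The WT-old value thus largely follows Amy-p, and the midgut covariate used the same sum. The low library of wakeD2 at ZT8 had 329 CPM of midgut markers, and the high ones at ZT20 and ZT12 had 409 CPM and 1278 CPM. The part of midgut and hemocyte RNA in these values was not tested.

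The genes most like the 10 were found by the same measure, as the 10 other genes with the highest r with the mean of the centred values over 46 libraries. They were CG43920 (r = 0.85), CecA2 (0.80), CG45045 (0.79), IBIN (0.73), CG42807 (0.71), edin (0.69), PGRP-SC2 (0.68), Mtkl (0.67), BomT1 (0.66) and PGRP-SB1 (0.64). CecA2 is a cecropin, PGRP-SC2 and PGRP-SB1 are secreted peptidoglycan recognition proteins with amidase activity, and edin and BomT1 encode small secreted peptides induced by infection. Against WT, 8 of these 10 genes were higher in WT-old, CG42807 (0.23) and edin (0.51) not passing, and 5 were higher in inc1 (CecA2, CG42807, CG45045, Mtkl and PGRP-SB1). None passed in wakeD2. Over all genes 14.0% were higher in WT-old and 14.9% in inc1, and 23.3% were called in either direction in wakeD2. CecA2, edin, PGRP-SC2, BomT1 and PGRP-SB1 also belong to the lists below, so the counts are not separate.

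Genes of the same pathways were described from lists. In WT-old, 39 of the 62 genes tested were called and all 39 were higher, where 14.0% of all genes were higher. The 14.0% belongs to the fit of all libraries, and shares of all genes in subsets are not given here. With the light-hour libraries of WT-old alone 41 were called, all higher. With its dark-hour libraries alone 27 were called higher and 3 lower, the short peptide gene BomS4 (-0.50), the protease gene psh (-0.23) and the recognition gene GNBP3 (-0.34). Among other antimicrobial peptide genes 4 of 7 rose: CecB by 1.52 on the log2 scale, CecC by 1.40, CecA2 by 1.26 and the drosomycin-like Drsl5 by 1.05. Among the Bomanins and other short induced peptides, which are mostly Toll targets, 13 of 16 rose, with a median of 0.68; BomBc1 (1.11) and Listericin (1.09) rose the most, and BomS4, BomS6 and edin did not pass. BomS genes are close copies whose reads are uncertain between them.

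Among recognition proteins, which bind microbial cell wall, 8 of 12 rose in WT-old. PGRP-SC2, which degrades peptidoglycan, rose by 1.78, PGRP-SA, a Toll-activating receptor, by 1.11, and PGRP-SD by 0.98. Among Imd pathway genes 3 of 10 rose: pirk, an induced inhibitor of the pathway, by 0.98, Rel, which encodes Relish, by 0.61, and key by 0.10. Among Toll pathway genes 7 of 13 rose, with the largest difference for SPE, the protease that activates the ligand spz, at 0.47. The 4 Turandot genes tested, stress-induced secreted peptides, all rose, TotM by 3.35, TotC by 2.72, TotA by 2.52 and TotX by 1.61.

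In inc1, 19 of the 62 genes were called, 10 higher and 9 lower. The 10 higher genes are 16.1% of the 62, close to the 14.9% of all genes that were higher. The 9 lower genes are 14.5% of the 62. The share of all genes lower in inc1 is not given here, so the falls below are not set against it. Of other antimicrobial peptide genes CecB (0.85), CecA2 (0.76) and CecC (0.72) rose and Drsl4 fell by 1.42. Of the 16 short induced peptides BomS4 rose (0.39) and Listericin fell by 0.48, and the median was 0.16. Of 12 recognition genes 3 rose and 2 fell, with PGRP-SB1 highest at 0.78. Of 10 Imd pathway genes Dredd rose (0.13) and Tab2 and Tak1 fell, while Rel (0.12) and pirk (0.23) did not pass. Of 13 Toll pathway genes Myd88 (0.26) and tub (0.18) rose and grass fell by 0.53. TotA and TotX fell, by 0.72 and 0.70.

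In wakeD2, 14 of the 62 genes were called and 13 of these were lower than in WT, where 1098 of the 9969 genes tested were lower. AttD fell by 1.67, Drsl5 by 1.05 and Drsl4 by 0.72. AttD was low in both groups, with medians of 1.08 CPM in WT and 0.86 CPM in wakeD2, and its highest WT library was at 14.7 CPM. Of 12 recognition genes 4 fell, and 2 Imd and 4 Toll pathway genes fell, among them grass by 0.47. The exception was Anp, an antimicrobial peptide gene of the male ejaculatory duct, which rose by 4.72. The 5 testis, 3 accessory gland and 1 ejaculatory bulb markers tested were also all higher in wakeD2. Anp was at a mean of 21.8 CPM in wakeD2 and 0.89 CPM in WT, with medians of 10.7 and 0.018 CPM. The bulb marker Ebp had medians of 141 CPM in wakeD2 and 0.024 CPM in WT. Such genes passed the low filter largely through the wakeD2 libraries, so these calls are no separate support. The share of all genes higher in wakeD2 is not given here. With the summed midgut markers as a covariate 4 of the 62 genes were called in wakeD2. That covariate largely follows the wakeD2 group, so the smaller count does not tell midgut RNA and genotype apart. Leaving out the libraries with midgut markers left 1 wakeD2 library, too few to read calls from.

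**Figure D4:**
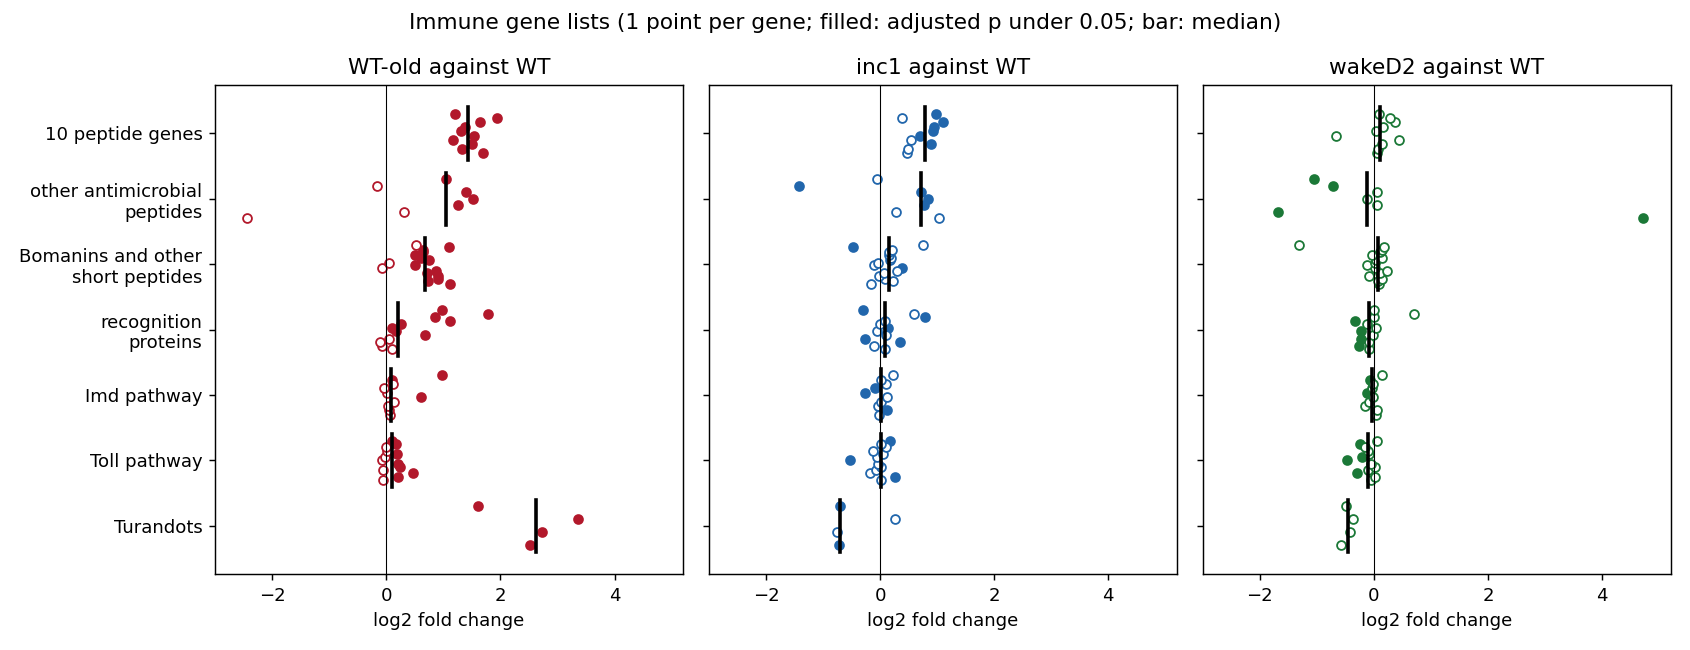
Log2 fold change against WT of the 10 peptide genes and of 6 lists of immune genes, 1 point per gene tested, filled where the adjusted p was under 0.05, with the median of each list as a bar. In WT-old the medians of the 10 peptide genes (1.44), other antimicrobial peptides (1.05), short peptides (0.68) and Turandots (2.62) lie to the right of those of the Imd (0.09) and Toll (0.11) pathway genes; in wakeD2 the 10 peptide genes are all open.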

How the data were processed

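The authors made stranded mRNA libraries from heads, sequenced single reads, aligned them with STAR 2.4.2a to genome Release 6.13 and counted reads per gene with featureCounts, and deposited raw counts in 1 table. The settings for strand and for reads that map to several places are not given in the sources used here. Of 17490 identifiers 17288 were matched to symbols in the Ensembl annotation of the same assembly. No gene, protein or promoter sequence was used here.

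Groups and ZT were taken from the labels. Genes under 1 CPM in more than 28 of 46 libraries were removed, which left 9969. Counts were tested with edgeR 4.0.16 in R 4.3.3 (TMM, glmQLFit and glmQLFTest) in a model of group and 6 times of day over all libraries, with BH adjustment over all genes and a threshold of 0.05. Rhythms were tested by cosine and sine terms of 24 h, and the days by a group and day model. Log2 CPM used a prior count of 2. Correlations and figures were made in Python 3.11.15 with numpy 2.4.6, pandas 2.3.3 and matplotlib 3.10.9. DESeq2 1.42.0 (Wald test), DESeq2's size factors, no filter, the timepoint as a block, subsets of libraries, a midgut covariate and each library left out were tried as alternatives. Scripts were tested on simulated data.

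With 3 counts as the limit of detection, the shallowest library has a floor of 0.238 CPM, which covers counting error only. No 2 libraries of a group were copies (smallest chi-square per degree of freedom 6.22). The 10 genes, named by symbol, and the lists were chosen with earlier results of these data known; the other named genes are list genes at the ends of their range and the 10 genes of highest r.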

Additional observations from a re-analysis of the deposited data

Results flagged for a closer look

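Def in WT at ZT44 was at 24.8 CPM, while the next highest of the 10 WT libraries was at 13.4 CPM. The gap was 0.541 of the range of the group, above Dixon's 95% critical value of 0.466. Of the 10 gene and group combinations that could be tested this way, which were those of WT since the other groups have more than 10 libraries, 1 was past that value, and chance alone passes about 5% of such groups.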

How the results depend on the processing

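The 10 higher calls in WT-old against WT held in every alternative but the second sampling day alone (8), and in all 46 fits without 1 library. The count in inc1 against WT was between 5 and 8 in those fits, 7 with DESeq2, 4 in the first day alone and 2 in the second, where Def (-0.053) and Drs (-0.30) turned below 0; it was 5 with no filter, with time of day left out, with the midgut covariate, with WT-old dark hours and with light hours alone, Def being lost in each. In wakeD2 against WT the count was 0 in every setting and 0 to 1 without 1 library. Estimates there that changed sign were small: in the second day alone DptA (-0.19), Dro (-0.014) and Drs (-0.39); with the midgut covariate DptA (-0.11), AttA (-0.12), AttB (-0.088) and CecA1 (-0.28); without libraries with midgut markers Dro (-0.11) and Def (0.41); at 10 shared timepoints AttA (-0.012); and with light hours alone AttB (-0.027) and Drs (-0.22). Without 1 library DptA ranged from -0.067 to 0.16, Mtk from -0.020 to 0.18, AttA from -0.036 to 0.15 and AttB from -0.00035 to 0.18.

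In WT-old against inc1 the count of 5 became 2 in the first day alone, 8 with WT-old light hours and 3 with WT-old dark hours (DptA -0.050, DptB -0.069, Mtk -0.26), and 5 to 8 without 1 library. In WT-old against wakeD2 it became 0 without libraries with midgut markers, as 1 wakeD2 library was left. In wakeD2 against inc1 the count of 6 became 2 in the first day, 3 in the second, 2 with light hours alone and 0 without libraries with midgut markers; Drs was 0.082 with time of day left out and ranged from -0.25 to 0.033 without 1 library. Between days at 10 shared timepoints Mtk in WT-old was -0.0073, and in inc1 DptA was 0.0049, DptB 0.13, AttB 0.25, AttC 0.13 and CecA1 0.087, none called.

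The counts over the lists were 12 with time of day left out, 12 in the first day and 7 in the second in inc1, and 4 in the second day, 0 without libraries with midgut markers, 4 with the midgut covariate and 9 with light hours alone in wakeD2. The causes were not tested, apart from the smaller number of libraries in the subsets.

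Libraries of different groups share a timepoint but no flies. The correlation of their deviations over all genes at the same timepoint ranged from -0.82 to 0.93. For inc1 and WT its mean was 0.39, against -0.05 with the same hour of the other day. There, 7 of 10 libraries were most alike at their own timepoint. For WT-old and inc1 the means were 0.30 and 0.12, with 7 of 12. For every other pair of groups the mean was lower at the same timepoint than on the other day. Libraries of a timepoint were thus alike for some pairs of groups only. With the timepoint as a block 10 genes were called in WT-old, 6 in inc1 and 0 in wakeD2 against WT. With the same block 6 were called in WT-old against inc1, 10 in WT-old against wakeD2 and 6 in wakeD2 against inc1.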
